A study of Danio rerio with 48 samples.

Results

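The comparison of high with low chromium sets 4 arrays of adult zebrafish exposed to 80.6 mg/L chromium against 4 arrays of adult zebrafish exposed to 56.5 mg/L, 8 of the 48 arrays of a series on nickel, chromium and cobalt. The arrays were chosen by their labels, and no control array enters the difference. The comparison therefore asks which probes differed between these concentrations, whether or not they differed from control at the lower one. All fish were 6 to 9 months old and were exposed for 24 h in flowing tank water. RNA of whole fish was pooled and hybridised to 1-colour arrays, with 4 arrays each for control, low, mid and high chromium. The mid group received 69.9 mg/L, and the controls of chromium received 0 mg/L and came from pools that nickel also used. The labels give neither strain nor sex, nor the number of fish or of tanks behind a pool. The p-values therefore refer to variation among these arrays, part of which may be technical. Which chromium compound was used is not stated in the labels.

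As background, chromate, the oxidised form of chromium, resembles sulfate and enters cells through anion transporters. Inside the cell it is reduced by ascorbate, glutathione and other thiols, which forms reactive intermediates and products that bind DNA and protein, whereas the trivalent form crosses membranes poorly. In fish the gill is a main route of uptake of metals from water.

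The array holds 43714 probes of 21903 transcripts, each value a log2 intensity. The transcript IDs are not paired with gene names in the tables used here, so 0 probes could be named by gene. Probes are therefore given by ID, no marker of a tissue or cell type could be looked up, and the labelled whole organism could not be checked against markers. Within these whole-fish pools, fewer cells of a type and less RNA per cell cannot be told apart. On the 8 arrays, 66.7% to 68.5% of the probes lay above log2 5, taken as the background limit. Precision is limited by having 4 arrays in a group.

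High replicate 3 stood apart from the other high arrays before any test. Over the 19345 probes with a mean above log2 6 on the chromium arrays, its mean correlation with the 4 controls was 0.955, against 0.922 to 0.938 for the other high arrays and 0.941 to 0.951 for the low arrays. Its root mean square distance from the control mean was 0.555 log2 units, less than the 0.579 to 0.646 of the low arrays and the 0.661 to 0.749 of the other high arrays. By these measures it was the exposed chromium array nearest to the controls, although its label gives it the highest concentration. It lay more than 2-fold beyond all other high arrays at 147 probes, 88 above and 59 below, against 12 to 41 probes for each of the others. At 97 of those 147 probes (66.0%) it lay nearer to the control mean than the rest of its group did. The like counts were 6 of 41 (14.6%) for high replicate 1, 4 of 13 (30.8%) for replicate 2 and 0 of 12 for replicate 4. The main results below are given with and without it, although the array was singled out with results of these data known. Its spike-in level, 10.89, lay within the range of the other high arrays, 10.58 to 11.16.

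Raising chromium from 56.5 to 80.6 mg/L moved few probes past the test. With the deposited scaling and the 16 chromium arrays in the fit, more of these fell than rose, but that split varied with the fit. In limma's fit of the 16 chromium arrays, 93 of 43714 probes passed an adjusted p of 0.05, which is 0.213%, with 29 higher and 64 lower at the high dose. Leaving out high replicate 3, the fit called 187 probes, or 0.428%, with 90 higher and 97 lower. In limma's test 4211 probes (9.63%) had an unadjusted p under 0.05 with all arrays, and 4526 (10.4%) without that array. Both fits called 76 of them, all in the same direction, which is 81.7% of the former list and 40.6% of the latter. The differences were small, with a median size of 0.78 log2 units among the 93 calls and 0.81 among the 187, against medians over all probes of 0.08 and 0.09. Only 3 of the higher and 20 of the lower calls reached 2-fold with all arrays, and 16 and 33 did without high replicate 3.

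**Figure D1:**
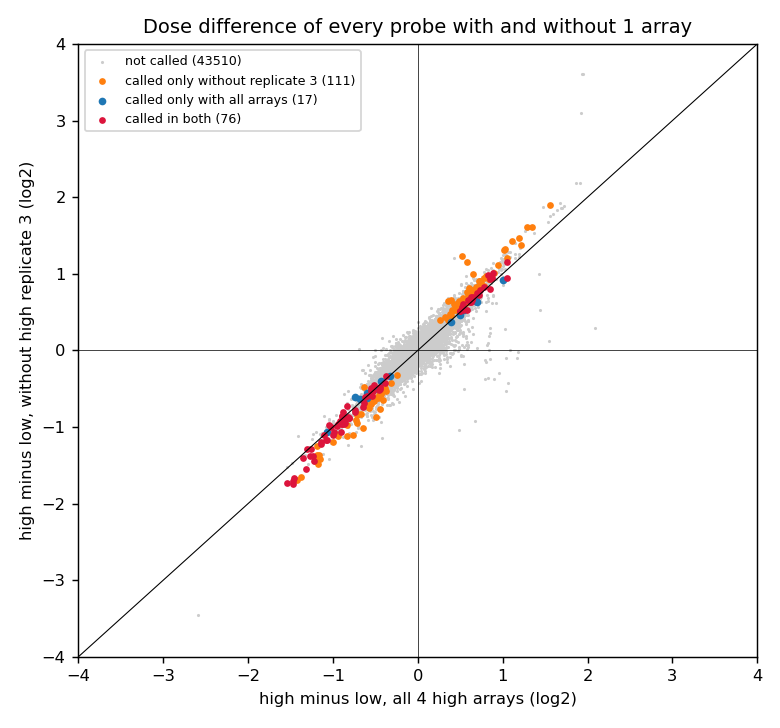
The high minus low difference of every probe (log2) with all 4 high arrays on the horizontal axis and without high replicate 3 on the vertical axis, on the same scale, with the line of equality. The 76 probes called in both fits lie on either side of 0 along the line, and the 111 called only without high replicate 3 lie mostly farther from 0 on the vertical axis.

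All 93 calls had 4 high arrays that did not overlap the 4 low arrays, a separation found at 2324 probes in all, or 5.32%. In the fit without high replicate 3 all 187 calls were separated in this way, against 4383 probes or 10% of all. The same array values decide the calls, so these counts are a description and not further support. The median level in the low group was 10.31 among the lower and 8.64 among the higher of the 93 calls, and 10.11 and 7.90 among the 187, against 5.64 over all probes. The lowest such level was 5.25 among the 93 and 4.94, below the background limit, among the 187. The 93 probes belong to 78 transcripts, each of which has several probes on the array. All probes were called for 15 of the transcripts, and for the other 63 the remaining probes differed in the same direction without all passing. Of the 154 transcripts called without high replicate 3, all probes passed for 33, and the others shared a direction in 120 of 121. No transcript had probes called in opposite directions, with 0 in both fits.

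Among the brighter probes, most differences were bounded within 2-fold. Only 23 of the 93 calls reached 2-fold themselves, so this bound does not exclude differences of the size called. Over the 19345 probes above log2 6 the 95% confidence interval of the difference had a median half-width of 0.30 log2 units. For 18511 of them (95.7%) the whole interval lay within a 2-fold difference either way, and without high replicate 3 this held for 18359 (94.9%).

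Neither 93 nor 187 is a settled count, since both depended on which arrays measured the spread. The 8 contrasted arrays leave 6 residual degrees of freedom, and limma then called 0 probes, with 4442 at an unadjusted p under 0.05. The 12 exposed chromium arrays leave 9, and gave 4 calls, of which 3 were among the 93. Adding the 4 controls gives 12. With high replicate 3 left out these fits gave 0 calls (4977 at an unadjusted p under 0.05), 23 and 187. Every probe named by rule below lost its call in the fit of the contrasted arrays, with limma adjusted p between 0.0713 and 0.144. Among these, only ENSDART00000066296_1 kept one with the exposed arrays, in the fit without high replicate 3, at an adjusted p of 0.0301. With all 16 arrays as the start, the count fell to 1 without high replicate 4, 3 without high replicate 1, 4 without low replicate 3, 5 without low replicate 1, 19 without low replicate 4 and 41 without low replicate 2. It was 99 without high replicate 2, with 59 of the 93 among them. The direction split also varied, from 29 higher and 64 lower to 113 and 114 with array weights and 108 and 94 when all 48 arrays shared the estimate of the spread. Without high replicate 3, 90 higher and 97 lower became 178 and 162 without the dimmest 25% of probes. They became 195 and 165 with a trend and robust priors and 288 and 234 with array weights. Lower calls stayed in excess there with quantile normalization, 82 and 91, and with the replicate number as a block, 32 and 47.

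**Figure D2:**
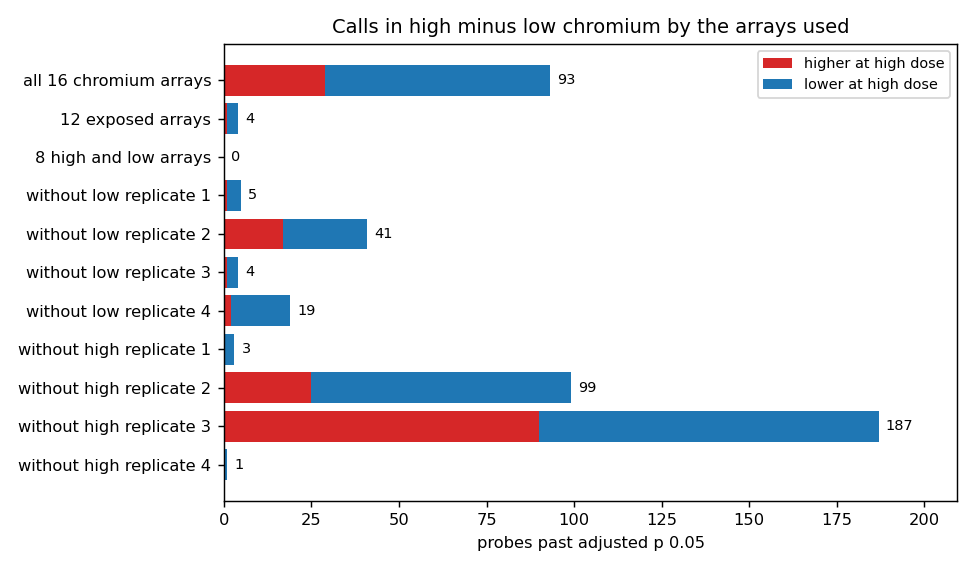
Number of probes past an adjusted p of 0.05 in high minus low chromium (horizontal axis, stacked as higher and lower at the high dose) by the arrays in the fit. The bars run from 0 with the 8 contrasted arrays alone to 187 without high replicate 3, with 93 when all 16 chromium arrays are used.

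Among decreases, ENSDART00000041329_2 read 11.38, 11.09, 11.75 and 10.83 on low replicates 1 to 4 and 9.20, 9.93, 10.30 and 9.45 on high replicates 1 to 4. Every high array lay below every low array, with high replicate 3 the nearest to the low group. The rule for named probes admits only calls separated in this way, so here and below the separation was required. In the fit without high replicate 3 it was judged without that array. The means were 11.26 ± 0.40 and 9.72 ± 0.49 (SD, n = 4 each), a log2 difference of -1.54 ± 0.25 (SE) with a limma adjusted p of 0.0324. Leaving out that array gave -1.73 ± 0.24 (SE), adjusted p 0.0174. Controls read 11.40 ± 0.12 (SD, n = 4), and low minus control was -0.14 with a 95% interval from -0.68 to 0.40. The mid mean lay between, at 10.18 ± 0.43 (SD, n = 4), but the mid arrays, at 9.63, 10.69, 10.22 and 10.17, overlapped the high ones. High minus mid was -0.46 (95% interval -0.99 to 0.08). Its other probe, ENSDART00000041329_1, fell by 1.32 on the log2 scale with an adjusted p of 0.0484 in limma's test, and by 1.55 with an adjusted p of 0.0174 without high replicate 3.

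ENSDART00000066296_1 read 10.86, 10.51, 10.62 and 10.06 on the low arrays and 8.77, 8.89, 9.86 and 8.66 on the high arrays. The groups did not overlap, but high replicate 3 was well above the rest of its group. The difference was -1.47 ± 0.28 (SE), limma adjusted p 0.0484, and without that array -1.74 ± 0.24 (SE), adjusted p 0.0174. The low group, at 10.51 ± 0.34, and the controls, at 10.45 ± 0.48 (SD, n = 4 each), differed by 0.07 with a 95% interval from -0.53 to 0.66, and the mid group lay at 9.50 ± 0.29, 69.1% of the way. The other probe of the transcript gave -1.38 ± 0.31 (SE) with an adjusted p of 0.089 in limma's test, and -1.65 with an adjusted p of 0.028 without high replicate 3.

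Among increases with all arrays, ENSDART00000010060_1 read 7.85, 7.84, 7.98 and 8.08 at the low dose and 8.95, 8.77, 9.29 and 8.92 at the high dose. High replicate 3 was the highest of the 8 arrays, so this probe did not share that array's position in the decreases. It rose by 1.05 ± 0.15 (SE) log2 units, limma adjusted p 0.0249, and by 0.94 ± 0.16 (SE) without high replicate 3, adjusted p 0.0257. It was already above its controls, 6.84 ± 0.29 (SD, n = 4), at the low dose by 1.09 ± 0.15 (SE), and by 2.14 at the high dose. These 2 values share the control arrays, and the former shares the low arrays with the dose difference. The mid mean, 8.08 ± 0.27 (SD, n = 4), was only 14.2% of the way from low to high. The other probe, ENSDART00000010060_2, rose by 1.00 ± 0.18 (SE), adjusted p 0.0439, and by 0.92 with an adjusted p of 0.0567 in limma's test without high replicate 3.

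ENSDART00000084828_2 read 8.62, 9.09, 8.62 and 8.25 at the low dose and 9.78, 9.45, 9.29 and 9.55 at the high dose. The groups did not overlap, and high replicate 3 was the lowest of the high arrays. It rose by 0.87 ± 0.16 (SE), limma adjusted p 0.0439, and low minus control was -0.13 (95% interval -0.46 to 0.21). The difference without high replicate 3 was 0.95 ± 0.17 (SE), adjusted p 0.0302. Its other probe differed by 0.77 and did not pass, with an adjusted p of 0.267 in limma's test, and its high and low arrays overlapped. Without high replicate 3 it differed by 0.89, limma adjusted p 0.182.

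The 2 increases named from the fit without high replicate 3 were of transcripts near or below the background limit in controls. ENSDART00000036280_1 read 5.74, 6.69, 6.20 and 5.96 at the low dose and 8.39, 7.78 and 7.96 on high replicates 1, 2 and 4, while high replicate 3 read 6.69, level with the highest low array. The difference was 1.90 ± 0.27 (SE) without that array, a limma adjusted p of 0.0174, and 1.56 ± 0.33 (SE) with it, adjusted p 0.0683. Controls read 5.05 ± 0.05 (SD, n = 4), with 1 of 4 at or below the background limit, and the mid arrays 6.15, 7.18, 7.37 and 7.32. ENSDART00000066972_2 read 5.44, 6.20, 5.70 and 5.73 at the low dose and 7.85, 6.99 and 7.31 on high replicates 1, 2 and 4, with 6.07 on high replicate 3. It rose by 1.62 ± 0.27 (SE) without that array, limma adjusted p 0.0267, and the difference was 1.29 ± 0.32 (SE) with it, adjusted p 0.123. Its 4 controls, at 4.75 ± 0.08, were all at or below the background limit. The other probe of the former transcript gave 1.61 with an adjusted p of 0.0447 in limma's test without high replicate 3, whereas that of the latter, ENSDART00000066972_1, gave 0.93 and did not pass, with an adjusted p of 0.115. The mid arrays of ENSDART00000066972_2 read 5.83, 7.12, 6.88 and 6.82. In both transcripts mid replicate 1 was the lowest of its group, and the mid arrays overlapped the 4 high ones, though for ENSDART00000036280_1 not high replicates 1, 2 and 4.

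**Figure D3:**
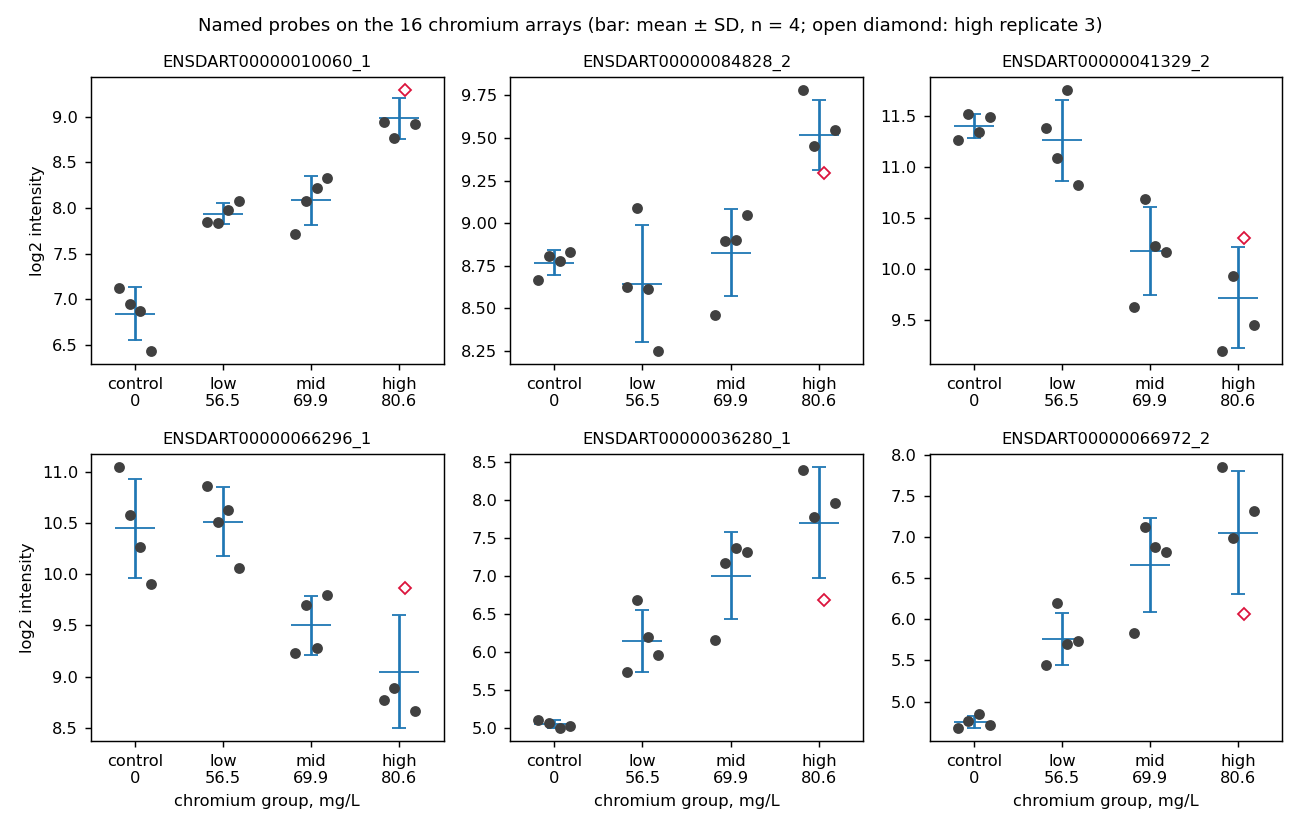
Log2 intensity of the 6 named probes on each of the 16 chromium arrays, by group with its concentration in mg/L (groups are evenly spaced, not to scale). Points are arrays, the bar is the mean ± SD of 4 arrays, and the open diamond is high replicate 3. That diamond lies level with the highest low array for ENSDART00000036280_1, at 6.69, and below all low arrays for ENSDART00000066296_1, at 9.86.

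The mean of the mid group, which does not enter the high minus low difference, lay between those of the 2 doses for nearly all called probes. The mid mean was between the low and high means at 88 of the 93 calls (94.6%), against 35.3% of all probes. In the fit without high replicate 3 this held for 173 of 187 calls (92.5%), against 36.9% of all probes. Lower calls had covered a median of 50.7% of the way from low to high at 69.9 mg/L, and higher calls 30.9%. For the calls made without high replicate 3 the medians were 44.2% and 34.1%. The difference between the directions was not tested. The mid arrays do enter the estimate of spread that decides which probes pass, and the low and high means that choose a call also bound its mid position.

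Neither of the neighbouring steps gave a call with all arrays. Mid minus low and high minus mid each passed 0 probes (0%) in limma's test, with 3001 (6.87%) and 3901 (8.92%) at an unadjusted p under 0.05. High minus mid passed 11 probes (0.0252%) without high replicate 3, 7 higher and 4 lower, and 5 without high replicate 1. Mid minus low passed 1 without low replicate 1, high replicate 2 or high replicate 3. No mid array was left out in turn, here or in the fit that follows. A fit of the 12 exposed arrays on measured concentration called 9 probes (0.0206%), 8 falling and 1 rising with concentration, and 7 of the 9 were among the 93. Their slopes ran from -0.06 to 0.02 log2 units per mg/L. That fit called 28 probes (0.0641%) without high replicate 3, 21 falling and 7 rising, and 31 without high replicate 2. It called 0 without low replicate 1, 3 or 4 or high replicate 4, 1 without high replicate 1 and 2 without low replicate 2.

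Set against the controls, most lower calls appeared below control at the high dose alone, while higher calls were above control as often at both doses as at the high dose alone. Low chromium differed from control at 11.3% of all probes and high chromium at 16.9%, in the same fit of 16 arrays. Of the 64 lower calls, 46 were not called against control at 56.5 mg/L and were called below it at 80.6 mg/L. A further 7 were below control at both doses. The other 11 were above control at the low dose, and 10 of these were no longer called at the high dose. Of the 29 higher calls, 12 were above control at both doses and 12 were called above it at the high dose alone. There were 4 below control at the low dose, 2 of which were still called below it at the high dose. The high mean was farther from the control mean than the low mean at 78 of the 93 calls (83.9%), against 57.4% of all probes, and at 172 of 187 (92.0%) without high replicate 3, against 60.6%. These comparisons share the low, high and control arrays, so their values are given side by side and no test of their relation was made.

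The calls made without high replicate 3 included more that were already past the test at the low dose. Of 97 lower calls, 26 were below control at both doses and 58 at the high dose alone. Of 90 higher calls, 44 were above control at both and 40 at the high dose alone. By array, the median over these lower calls was -0.07 to -0.36 log2 units from control on low arrays, and over the higher calls 0.28 to 0.41. On high replicate 3 itself, which did not enter that choice, the median was -0.79 for the lower calls and 0.58 for the higher ones. Both lay beyond all 4 low arrays, but the low arrays did enter that choice. Their position relative to high replicate 3 is therefore partly set by it. The lower calls lay beyond the mid arrays too, at -0.53 to -0.64, and the higher calls within the mid range of 0.43 to 0.68. The other high arrays, on which these probes were chosen, had -0.85 to -1.36 for the lower calls and 1.01 or more for the higher, and that choice places them farther out. Over the 64 lower calls of all arrays, high replicate 3 was at -0.70, between high replicate 2 at -0.55 and the other high arrays at -0.80 and -0.88.

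**Figure D4:**
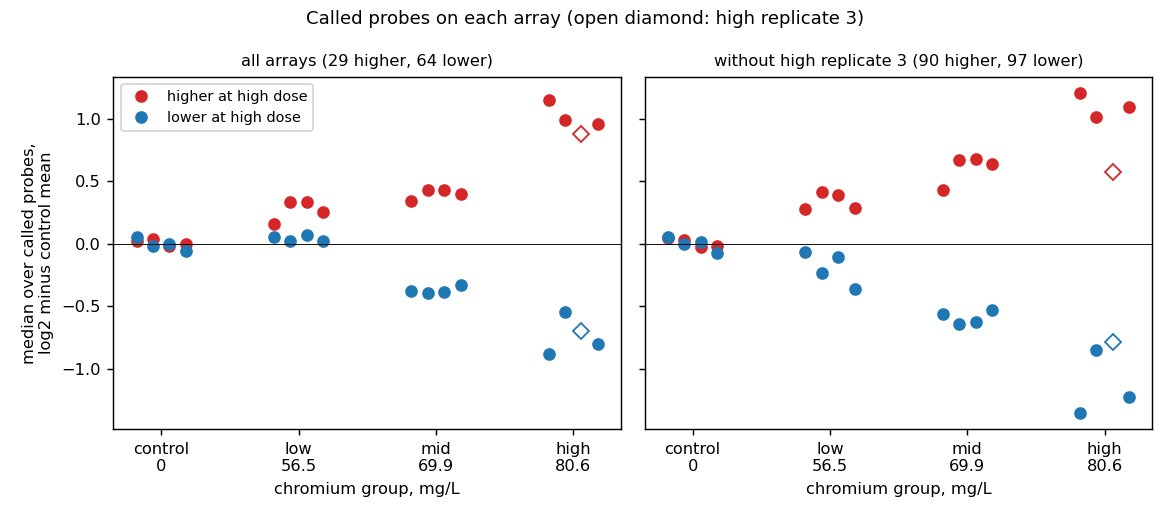
Median over the called probes of the log2 difference from the control mean, 1 point per array, for the 93 calls of all arrays (left) and the 187 calls without high replicate 3 (right), by group with its concentration in mg/L (evenly spaced, not to scale). The open diamond is high replicate 3. Low arrays lie near 0 for the lower calls on the left, at 0.02 to 0.07, mid arrays at -0.33 to -0.39 and high arrays at -0.55 to -0.88.

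The step from low to high in the other metals was measured on separate arrays, at 42.4 and 64 mg/L for nickel and 39.7 and 59.5 mg/L for cobalt, so the steps are not matched in concentration. Probes that rose with chromium mostly had higher means at the high dose of cobalt and nickel too, while probes that fell were divided. High minus low nickel called 0 probes (0%), with 3186 (7.29%) at an unadjusted p under 0.05 in limma's test. High minus low cobalt called 65 (0.149%). Of the 29 probes that rose from low to high chromium, 27 also had a higher mean in high than in low cobalt and 23 in nickel. Of the 64 that fell, 23 had a lower mean in cobalt and 32 in nickel. Over all probes the direction was shared with cobalt at 55.1% and with nickel at 53.2%. For the calls made without high replicate 3, 86 of 90 higher and 45 of 97 lower calls shared their direction with cobalt, and 72 and 46 with nickel. The higher calls had a median of 0.15 log2 units in cobalt and 0.15 in nickel, against 0.65 in chromium. Those made without high replicate 3 had 0.31 in cobalt and 0.20 in nickel, against 0.74 in chromium. For the lower calls the medians, signed so that a positive value follows chromium, were -0.12 in cobalt and 0.002 in nickel, against 0.86 in chromium. For those made without high replicate 3 they were -0.04 and -0.01, against 0.88. The difference between the directions was not tested. Of the 93, 1 was itself called in cobalt, where 0.149% of all probes were called. In nickel 0 of them were called, which follows from 0 calls over all probes.

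A test of the difference between metals, on the 24 low and high arrays of all 3, called 53 probes (0.121%) between chromium and cobalt, and 47 of these were lower in chromium relative to cobalt. Of the 53, 18 were among the 93, all 18 of them lower in chromium and higher by their mean in cobalt. The other 35 were not called in high minus low chromium. None of the 29 higher calls was among the 53, a count of 0. At a share of 0.121% of all probes, a list this short could well hold none. Those 93 were chosen on the chromium difference that enters this test, so the counts within them are a description. The test called 63 probes (0.144%) without high replicate 3, 53 of them lower in chromium relative to cobalt. It called 24 without low replicate 3, 27 without low replicate 2, 29 without high replicate 1, 31 without high replicate 4 and 32 without low replicate 1.

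Between chromium and nickel that test called 3 probes (0.00686%), and without high replicate 3 it called 0 (0%), with the lowest adjusted p at 0.051 in limma's test. The 3 were ENSDART00000033118_1, ENSDART00000047007_2 and ENSDART00000054230_1, which are named here after their values were seen. All 3 fell in chromium and were higher by their mean at the high than at the low nickel dose. Their transcripts' other probes shared these directions but were not called in this test. ENSDART00000033118_2 differed by -0.91 in chromium and 0.67 in nickel, ENSDART00000047007_1 by -0.87 and 0.18, and ENSDART00000054230_2 by -0.86 and 0.19. The abundant ENSDART00000054230_1 went from 14.87 ± 0.16 to 14.02 ± 0.21 in chromium, and had means of 14.68 ± 0.14 and 14.92 ± 0.15 in low and high nickel (SD, n = 4 each). The difference between the metals was -1.09 ± 0.17 (SE), adjusted p 0.0336 in limma's test. For ENSDART00000033118_1 it was -1.36 ± 0.20 (SE) and for ENSDART00000047007_2 -1.19 ± 0.18 (SE). These 3 adjusted p-values were all 0.051 without high replicate 3, where the differences were -1.40 for ENSDART00000033118_1, -1.23 for ENSDART00000047007_2 and -1.13 for ENSDART00000054230_1. The test also called 0 without low replicate 1, 2 or 3 or high replicate 1 or 4, and 0 with spike-in scaling.

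By the sign of their differences the probes named by rule followed the split between the directions. Each increase named by rule had a higher mean at the high than at the low dose of cobalt and of nickel. Each decrease named by rule had a higher mean in high cobalt and a lower one in high nickel. ENSDART00000010060_1 differed by 0.30 in cobalt and 0.70 in nickel, and ENSDART00000084828_2 by 0.20 and 0.21, none past limma's threshold. In nickel ENSDART00000066972_2 differed by 0.26 and ENSDART00000066296_1 by -0.18. ENSDART00000041329_2 differed by 0.11 in cobalt (95% interval -0.25 to 0.48) and -0.01 in nickel (-0.40 to 0.37), so neither sign was settled. In nickel ENSDART00000041329_1 differed by 0.07, the opposite sign. The difference of ENSDART00000041329_2 between chromium and cobalt was -1.65 ± 0.32 (SE), limma adjusted p 0.0426, and -1.85 with an adjusted p of 0.0137 without high replicate 3. Its other probe, ENSDART00000041329_1, did not pass that limma test with all arrays, at -1.40 and an adjusted p of 0.142, and did without high replicate 3, at -1.63 and 0.0281. ENSDART00000066296_1 had a mean 0.79 log2 units higher at high than at low cobalt, and the difference between the metals was -2.25 ± 0.45 (SE) with an adjusted p of 0.0507. It was -2.52 without high replicate 3, limma adjusted p 0.0164. ENSDART00000066972_2 read 5.16, 4.95, 4.92 and 5.41 on the low cobalt arrays, 2 of 4 below the background limit, so the size of its difference there is uncertain. The fitted difference in cobalt was 1.77 ± 0.30 (SE) with a limma adjusted p of 0.0342, while the other probe, ENSDART00000066972_1, differed by 1.56 and did not pass, with an adjusted p of 0.0517. For ENSDART00000066972_2 the chromium minus cobalt difference was -0.49 (95% interval -1.39 to 0.42). ENSDART00000036280_1 differed by 1.24 ± 0.45 (SE) in cobalt and 0.73 ± 0.19 (SE) in nickel, neither of which passed in limma's test, with adjusted p of 0.308 and 0.348.

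**Figure D5:**
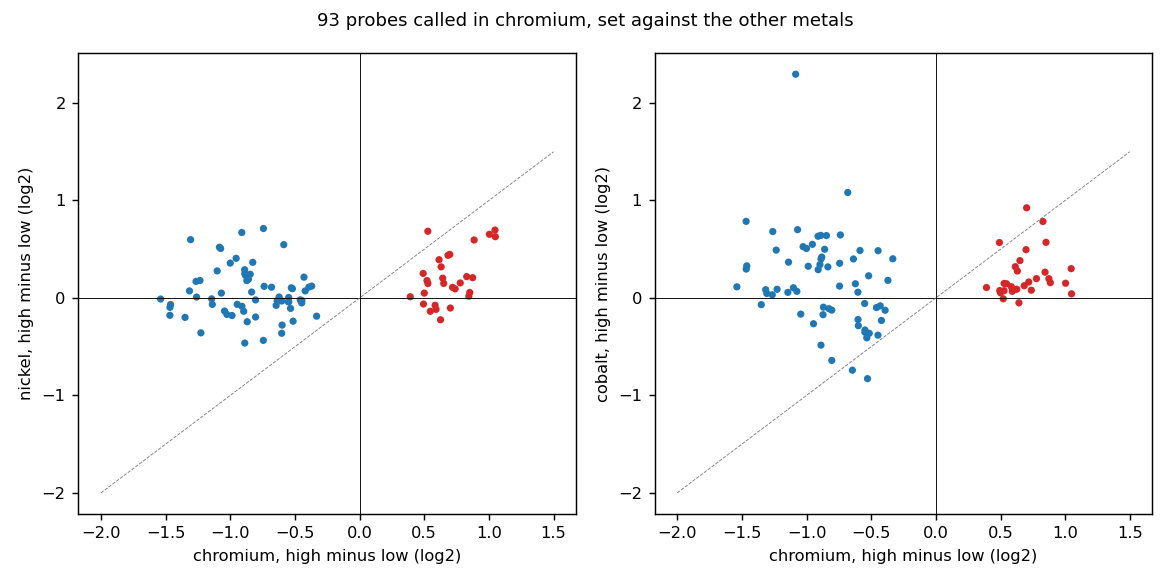
High minus low difference (log2) of the 93 probes called in chromium, on the horizontal axis, against the same difference in nickel (left) and cobalt (right), with red for the 29 higher and blue for the 64 lower calls and a dashed line of equality. Red points lie mostly above 0 in cobalt (27 of 29), while blue points lie on both sides, with 23 of 64 below 0.

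The spread within the groups and the spike-in spots were examined as measures that bear on the whole comparison. The median SD per probe over the 19345 probes above log2 6 was 0.18 log2 units in the low group and 0.19 in the high group, and 0.17 in the high group without replicate 3. An SD above 1 was seen at 56 probes in the high group, at 22 without replicate 3 and at 21 in the low group. The 6 spike-in rows averaged 10.82 ± 0.27 on high and 10.91 ± 0.13 on low arrays (SD, n = 4 each). High minus low was -0.09, and an exact permutation test, 2-sided, gave p = 0.6, where 0.0286 is the smallest possible. Leaving out high replicate 3 gave -0.12, exact permutation p 0.514. Scaled to these spots, the comparison gave 125 calls with 73 higher and 52 lower, of which 37 were among the 93, so the excess of lower calls was turned. That scaling moved the median of all probes by 0.09 log2 units, and by 0.12 without high replicate 3, where it gave 198 higher and 68 lower calls. Directions are therefore given relative to the deposited scaling, within which the split of the calls also depended on the fit.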

How the data were processed

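The deposited table holds log2 intensity values of 48 arrays in 12 groups of 4. Their range, and not a stated method, shows the log2 scale. Per the labels' protocols, Cy3-labelled material was made from pooled RNA. How the authors corrected background and normalized the arrays, and with which software, is not stated in the labels. Arrays had medians between 5.63 and 5.65 in the low and high chromium groups and were not normalized further. Control rows were left out of the tests.

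R 4.3.3 with limma 3.58.1 was used. lmFit and eBayes were run on the 16 chromium arrays with a coefficient per group, and adjusted p-values (Benjamini-Hochberg, threshold 0.05) covered all 43714 probes. Differences between metals used 24 low and high arrays. The fits were tested on simulated data, but the outcome is not given here and lends the calls no support. The compared arrays, gene lists, tests and rule for named probes, including the fit on 16 arrays and the removal of high replicate 3, were chosen with earlier results of these data known. The rule lets each transcript's brightest probe stand for it and names the 2 steepest increases and 2 steepest decreases among separated calls, in each of the fits with and without high replicate 3. The gene lists drawn up for this comparison could not be used, since no ID was paired with a symbol. Spike-in rows were the 6 rows named E1A with means between log2 6 and 15. Alternatives covered the arrays fitted, scaling, filters, variance model, array weights, replicate block, a 2-fold limit, 1 probe per transcript and leaving out low or high chromium replicates.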

Additional observations from a re-analysis of the deposited data

Results flagged for a closer look

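Dixon's criterion, which chance alone meets in about 1 of 20 groups, was met in 2 of the 44 groups of 4 arrays examined. ENSDART00000036280_1 read 6.15 on mid replicate 1, against 7.18 to 7.37 on the other mid arrays. The spike-in level of mid replicate 2 was 11.20, against 10.76 to 10.83 on the other mid arrays. Neither array enters the high minus low difference, though both count toward its spread.

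The dose difference of ENSDART00000041329_2 differed between chromium and cobalt by -1.65 ± 0.32 (SE), limma adjusted p 0.0426. The other probe of the transcript, ENSDART00000041329_1, did not pass the same test, at -1.40 and an adjusted p of 0.142. Without high replicate 3 both passed it, the former at -1.85 (limma adjusted p 0.0137) and the latter at -1.63 (0.0281). For ENSDART00000041329_2 every chromium high array lay below every chromium low array, which the rule for named probes required.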

How the results depend on the processing

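Against 93 calls in high minus low chromium, limma gave 0 with the high and low arrays alone, 4 with the exposed arrays, 162 without the dimmest 25% of probes, 157 without probes at background, 192 with a trend and robust priors, 202 with all 48 arrays (where the pools that nickel and chromium share count for each metal), 227 with array weights and 23 at 2-fold. Leaving out 1 array gave 1 to 187, where, here and below, only low and high chromium arrays were left out in turn. An alternative chosen after seeing the data, without background probes and high replicate 3, gave 324. Against 187 without high replicate 3, the values were 0, 23, 340 (dimmest left out), 360 (trend), 522 (weights) and 49 (2-fold), and 0 to 354 with a further array left out. Quantile normalization, median centring, 1 probe per transcript and spike-in scaling, where run, kept both counts of high minus low within 1.5 times. With spike-in scaling the probes themselves changed, since its calls included only 37 of the 93 and 90 of the 187. Mid minus low ran from 0 to 1 without single low or high arrays. High minus mid was 41 with spike-in scaling and 0 to 11 without single low or high arrays. No mid array was left out in turn, so how the counts that use the mid group depend on its single arrays was not tested. The 9 calls of the concentration fit became 47 with spike-in scaling, 59 with weights, 0 at 2-fold, which for a slope means 2-fold per mg/L and follows from that construction, and 0 to 31 without single arrays. The 3 calls between chromium and nickel became 0 with spike-in scaling and 0 to 3 without single arrays, and the 53 between chromium and cobalt 24 to 63. The ratio of the median SD of the high to that of the low group was 1.09, and 0.973 without high replicate 3. The causes were not tested. None of the probes named by rule reversed direction (0 in each fit), but each lost its call under 7 to 11 of 21 alternatives with all arrays and under 3 to 8 of 15 without high replicate 3.

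With the replicate number as a block, the 93 calls became 16, the 187 became 79 and the 9 of the concentration fit became 0. Among probes named by rule, ENSDART00000010060_1 (limma adjusted p 0.0597), ENSDART00000084828_2 (0.0869) and ENSDART00000066296_1 (0.0869) then did not pass with all arrays, nor ENSDART00000066972_2 (0.0585) without high replicate 3. Same-numbered low and high arrays correlated between 0.061 and 0.095 in their deviations from the group means. All 8 of 8 correlated best with their own number. The block also covers the mid and control arrays, where same-numbered arrays were less alike. Mid and high arrays correlated between -0.128 and 0.033, and low and mid arrays between -0.045 and 0.110. With the controls the values ran from -0.018 to 0.231 for low and from -0.035 to 0.209 for high arrays, both largest for replicate 1. Whether the numbers pair the arrays was not tested.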
